A study of Rattus norvegicus with 11 samples.

Results

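Fatty acid oxidation and fasting response genes were followed in rat ileum after severe acute pancreatitis (SAP) with and without JZL184, an inhibitor of monoacylglycerol lipase (MAGL). The 8 genes were taken by symbol from a list: Ppara, Creb3l3, Cpt1a, Acadm, Acsl1, Pdk4, Angptl4 and Fgf21. All 8 were among the 24481 genes with read counts and the 24205 genes with FPKM values (mapped fragments scaled for gene length and library depth).

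The animals were SD rats aged 6 to 8 weeks, described in the study's methods as male. The SAP group (4 libraries) received 3% sodium taurocholate into the pancreatic duct and an intraperitoneal vehicle injection, and the JZL184 group (4 libraries) received the same surgery and JZL184 at 10 mg/kg. The control group (3 libraries) received vehicle; its labels read control plasmid, and a sham operation of the controls is not given in the sources used here. All ilea were taken 24 h after the injection, and the study's methods place the division into groups 24 h after the surgery. Acute pancreatitis and the operation were shared by the SAP and JZL184 groups but not known to be shared by the controls. The labels name intestinal epithelial cells, whereas the RNA was extracted from whole ileal tissue, in which fewer cells of a type and less RNA per cell cannot be told apart.

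When food is scarce, fatty acids released from fat stores are activated to acyl-CoA, carried into mitochondria on carnitine and broken down by beta-oxidation. PPARA is a nuclear receptor activated by fatty acids that switches on genes of this route. CREB3L3 is a membrane-bound transcription factor of liver and small intestine that is released by cleavage and acts with PPARA on shared targets, among them Fgf21, a fasting hormone known best from liver.

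Each library held between 26341299 and 33847135 reads on genes. Control libraries 1 and 2 differed by far less than any other pair in a group (chi-square per gene 2.81 against 77.5 to 563.03 in 14 other pairs) and were counted as 1 sample, which leaves 2 control samples. The SAP group was split. Chi-square per gene was 85.5 between SAP libraries 1 and 2 and 99.1 between 3 and 4, against 337.01 to 563.03 for the other SAP pairs. Whether the samples of a group came from separate animals is not stated for each library, so p-values measure the spread between these samples. SAP library 2 held 20 reads on Y-linked genes and 7826 on Xist, against 1222 to 4665 and at most 56 in the other libraries, although the animals are described as male. JZL184 library 3 went against its ileal label: the ileal bile acid binding protein gene Fabp6 was at 79.9 FPKM and Apob at 0.29 (lowest of the other 10 libraries, 409.74 and 8.12), while the colonic genes Car1 and Hoxd10 were at 477.54 and 4.49 (highest of the others, 24.5 and 0.07). JZL184 library 1 had the next lowest Fabp6 (409.74 FPKM) and the highest lactase transcript, Lct (44.5 FPKM; highest of the others, 7.58), an enzyme of the upper small intestine. These check genes were chosen after their values were seen, and some of the results that rest on these libraries are also given without them.

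Mgll, which encodes the enzyme that JZL184 inhibits, is a check on levels and not on drug action, since JZL184 acts on the protein. Its level was 5.04 ± 1.11 FPKM in control (SD, n = 2 samples), 3.68 ± 0.929 in SAP (SD, n = 4) and 4.67 ± 4.03 in JZL184 (SD, n = 4). In the JZL184 group library 3 was at 10.5 FPKM and the others between 1.56 and 4.19. It was not called in any comparison with all libraries (edgeR quasi-likelihood test, Benjamini-Hochberg adjusted p = 0.462 for SAP against control, 0.625 for JZL184 against SAP and 0.855 for JZL184 against control). Without JZL184 libraries 1 and 3 together Mgll was called lower against control (log2 fold change -1.27, edgeR adjusted p = 0.0271). Those libraries held the higher JZL184 values of Mgll (4.19 and 10.5 FPKM), and 19.4% of all genes were called in that fit.

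Stretches upstream of the start site are shown for the one gene that was called in the main comparison (Angptl4), for the gene with the highest estimated fold change (Pdk4), and for the transcription factor and hormone of the CREB3L3 axis (Creb3l3 and Fgf21). They are RefSeq sequences of the GRCr8 assembly, not the build of the expression files, and cover the 250 bases before the start. Creb3l3 lies at chr7:9273070-9273319 on the plus strand, Angptl4 at chr7:15258682-15258931 on the minus strand, Pdk4 at chr4:34568330-34568579 on the minus strand and Fgf21 at chr1:105221377-105221626 on the minus strand. Capitals mark 4 motifs on either strand. The hexamer bound by each partner of a PPAR pair reads AGGTCA. The core of the cyclic AMP response element, to which CREB factors bind, reads TGACG. The E box read by bHLH factors such as the clock proteins is CACGTG. The TATA box of the core promoter was searched as TATAAA.
Creb3l3: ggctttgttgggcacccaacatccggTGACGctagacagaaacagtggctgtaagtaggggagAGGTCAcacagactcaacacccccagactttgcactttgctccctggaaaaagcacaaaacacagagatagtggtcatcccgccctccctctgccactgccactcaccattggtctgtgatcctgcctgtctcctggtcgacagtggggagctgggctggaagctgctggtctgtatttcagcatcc
Angptl4: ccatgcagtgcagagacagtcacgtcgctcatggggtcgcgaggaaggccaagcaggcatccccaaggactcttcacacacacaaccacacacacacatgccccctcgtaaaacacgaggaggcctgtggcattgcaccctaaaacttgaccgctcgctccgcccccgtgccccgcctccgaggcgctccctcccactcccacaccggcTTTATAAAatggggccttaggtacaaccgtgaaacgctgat
Pdk4: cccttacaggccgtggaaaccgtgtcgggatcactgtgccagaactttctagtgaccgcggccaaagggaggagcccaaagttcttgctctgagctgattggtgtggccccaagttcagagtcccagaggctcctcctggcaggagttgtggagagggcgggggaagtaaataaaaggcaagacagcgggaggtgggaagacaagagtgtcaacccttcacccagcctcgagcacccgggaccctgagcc
Fgf21: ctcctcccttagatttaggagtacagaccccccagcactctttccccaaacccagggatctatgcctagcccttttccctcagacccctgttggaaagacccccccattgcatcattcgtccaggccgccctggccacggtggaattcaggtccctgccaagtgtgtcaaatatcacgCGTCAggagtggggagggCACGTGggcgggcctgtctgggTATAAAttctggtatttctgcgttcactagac

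Promoters of all 8 genes were searched from 250 bases before to 50 after the start, on both strands, beside 33469 rat promoters of the same length. The paired PPAR element AGGTCANAGGTCA matched none of the 8, and 0.0538% of all promoters. The hexamer AGGTCA alone matched Creb3l3, at base -187, and 16.2% of all promoters. TGACG matched Creb3l3, Acadm and Fgf21 and 21.2% of all promoters; in Acadm it was part of the full element TGACGTCA, at base -103, which 1.83% of all promoters hold. Angptl4 and Fgf21 had TATAAA, at bases -39 and -32, as did 14.2% of all promoters, and CACGTG matched Fgf21 and 6.42% of all promoters. The Pdk4 window held none of these 4 motifs but a CCAAT box at base -153, which 37.5% of all promoters hold. These matches describe letters in a window and not bound sites.

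The transcription factors differed in level and in spread. Ppara was low in every library, at 0.62, 0.58 and 0.65 FPKM in control, 1.05, 1.27, 0.69 and 0.59 in SAP and 1.38, 0.5, 0.72 and 0.86 in JZL184. The groups overlapped, with the 3 highest values in JZL184 library 1 and SAP libraries 2 and 1. Its log2 fold change was 0.35 for SAP against control (SE 0.362), 0.10 for JZL184 against SAP (SE 0.336) and 0.42 for JZL184 against control (SE 0.394), with none called.

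Creb3l3 was among the well expressed members, and its JZL184 values spanned the whole range of the series. It stood at 36.2, 36.4 and 49.6 FPKM in control and at 56.7, 200.2, 84.4 and 158.1 in SAP. In JZL184 it was at 543.76, 160.43, 1.81 and 215.03 FPKM. All 4 SAP values lay above the controls, whereas the JZL184 group held both the highest library (1) and the lowest (3) of the series. Those are the same libraries that stood apart in gut position genes: Apoa4, an enterocyte apolipoprotein gene and CREB3L3 target, was at 1082 FPKM in JZL184 library 1 and 5.48 in library 3, against 31.2 to 543.68 in the other 9 libraries. The part of gut position in the Creb3l3 values was not tested.

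**Figure D1:**
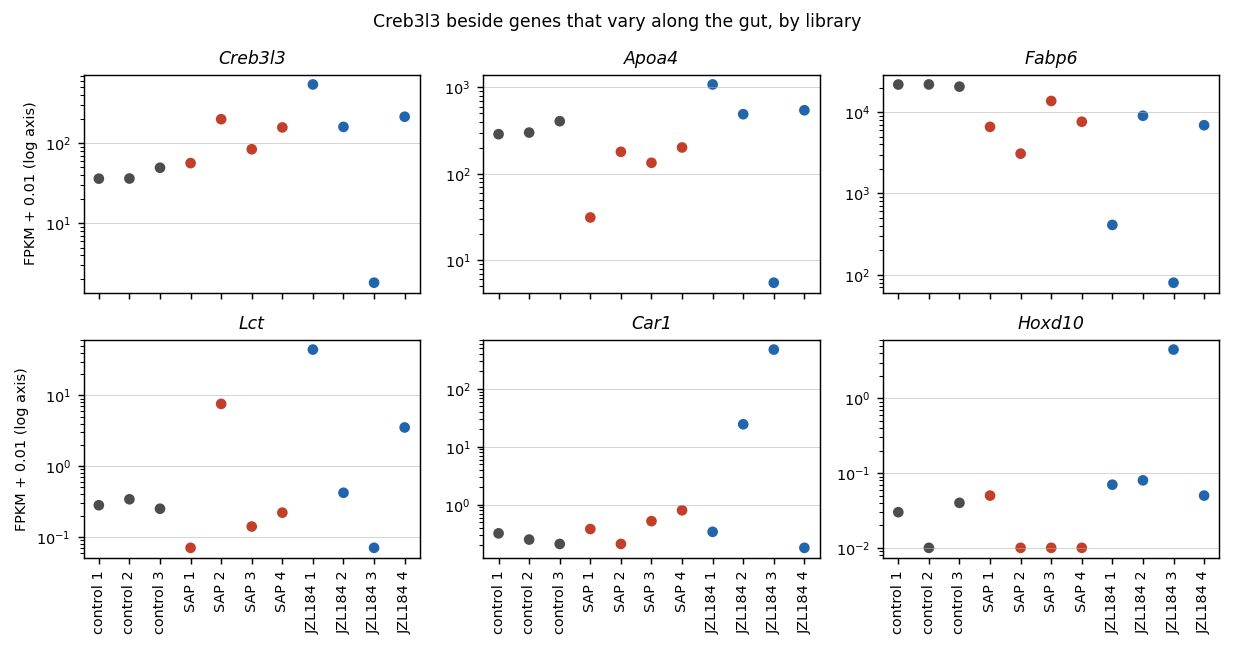
FPKM plus 0.01 on a log axis for Creb3l3 and 5 genes whose levels vary along the gut, with 1 point per library (grey control, red SAP, blue JZL184). Creb3l3 and Apoa4 were highest in JZL184 library 1 and lowest in library 3, Lct was highest in library 1, and Car1 and Hoxd10 were highest in library 3.

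The log2 fold change of Creb3l3 was 1.39 for SAP against control (SE 0.551, adjusted p = 0.459), 1.01 for JZL184 against SAP (SE 1.03, adjusted p = 0.571) and 2.38 for JZL184 against control (SE 1.46, adjusted p = 0.327; edgeR quasi-likelihood test with Benjamini-Hochberg adjustment). Without JZL184 library 3 the JZL184 against control difference was 2.79 and was called (edgeR adjusted p = 0.0174). It was also called without libraries 1 and 3 together (log2 fold change 2.19, edgeR adjusted p = 0.000955). These fits called 5.46% and 19.4% of all genes, against 2.16% with all libraries. Libraries 1 and 3 held the highest and lowest JZL184 values of Creb3l3, so leaving both out narrows its spread and favours a call. Without SAP library 2 the SAP against control difference was 1.13. For JZL184 against SAP, leaving out 1 sample gave differences from 0.275 to 1.426. JZL184 libraries 2 and 4 averaged 187.73 ± 38.6 FPKM (SD, n = 2), against 42.9 ± 9.40 in control (SD, n = 2). These libraries also differed from control in gut position genes. Car1 was at 24.5 FPKM in JZL184 library 2 (controls, 0.2 to 0.31). Lct was at 3.51 FPKM in JZL184 library 4 and 7.58 in SAP library 2 (controls, 0.24 to 0.33).

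Acsl1, which activates long-chain fatty acids to acyl-CoA, had the lowest estimates of the members in both comparisons of JZL184. It was at 6.75, 6.85 and 5.22 FPKM in control, 6.46, 10.3, 4.87 and 3.96 in SAP and 4.37, 1.55, 1.98 and 2.62 in JZL184. All 4 JZL184 libraries lay below the controls, and library 1 overlapped the SAP range. The log2 fold change was -0.12 for SAP against control (SE 0.388, adjusted p = 0.88), -1.11 for JZL184 against SAP (SE 0.36, adjusted p = 0.146) and -1.26 for JZL184 against control (SE 0.384, adjusted p = 0.0972; edgeR with Benjamini-Hochberg adjustment), so Acsl1 was not called. With limma-voom it was called against SAP (adjusted p = 0.0435) and against control (adjusted p = 0.0198), and with DESeq2 against control only (adjusted p = 0.0394; 0.0591 against SAP).

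Cpt1a encodes the liver-type carnitine palmitoyltransferase of the outer mitochondrial membrane, the controlled step of fatty acid entry. Its level was 6.05, 6.44 and 5.84 FPKM in control, 15.6, 25.1, 8.87 and 7.82 in SAP and 17.3, 16.6, 12.9 and 8.30 in JZL184. Every SAP and JZL184 library was above every control library, and the SAP and JZL184 ranges overlapped. The log2 fold change was 1.04 for SAP against control (SE 0.47, adjusted p = 0.459) and 1.15 for JZL184 against control (SE 0.365, adjusted p = 0.104; edgeR with Benjamini-Hochberg adjustment). JZL184 against SAP differed by 0.15 (95% interval -0.68 to 0.99).

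Acadm, the medium-chain acyl-CoA dehydrogenase of beta-oxidation, was also well expressed and its groups overlapped. It was at 112.18, 106.72 and 112.23 FPKM in control, 98.6, 161.34, 87.1 and 160.85 in SAP and 134.44, 73.8, 80.4 and 120.38 in JZL184. The log2 fold changes were 0.03 for SAP against control (95% interval -0.82 to 0.89), -0.17 for JZL184 against SAP (-0.88 to 0.53) and -0.16 for JZL184 against control (-0.88 to 0.55), and none was called.

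Pdk4 encodes a kinase that turns off pyruvate dehydrogenase and so spares glucose when fat is burned. It was nearly silent in control, with 2 reads in each of the 3 libraries (0.05, 0.05 and 0.04 FPKM). In SAP it was at 1.11, 4.82, 0.19 and 0.23 FPKM (59, 227, 8 and 11 reads) and in JZL184 at 2.18, 0.33, 0.65 and 1.62 (107, 14, 28 and 67 reads). All 8 libraries with pancreatitis were above all controls, and their spread was wide, with SAP library 2 holding most of the SAP reads. SAP libraries 1 and 2 were both above SAP libraries 3 and 4, as for Ppara, Cpt1a and Acsl1 but not for the other members. The log2 fold change was 4.80 for SAP against control (SE 1.61, adjusted p = 0.459) and 4.57 for JZL184 against control (SE 0.965, adjusted p = 0.0526; edgeR with Benjamini-Hochberg adjustment), neither called, and the fold rests on few control reads. Without JZL184 library 3 the JZL184 difference was called (log2 fold change 4.79, adjusted p = 0.0206). Without SAP library 2 the SAP difference was 3.25 on the log2 scale.

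Angptl4, a secreted inhibitor of lipoprotein lipase and a well-known PPAR target, rose in the JZL184 group against control and was the only member called in the main fits. Its level was 0.79, 0.81 and 0.78 FPKM in control, 3.27, 4.72, 4.27 and 1.70 in SAP and 5.0, 4.83, 3.91 and 3.36 in JZL184. Every library with pancreatitis was above every control library; the SAP and JZL184 ranges overlapped, with SAP library 4 the lowest. JZL184 against control gave a log2 fold change of 2.40 (SE 0.355, 95% interval 1.59 to 3.21), a 5.28-fold higher level, with an adjusted p of 0.0232 (edgeR quasi-likelihood test with Benjamini-Hochberg adjustment; range over the alternatives 2.79e-12 to 0.354). SAP against control gave 1.95 (SE 0.455, adjusted p = 0.449; 1.81 without SAP library 2) and was not called, and JZL184 against SAP gave 0.49 (95% interval -0.24 to 1.21). The call held without JZL184 library 3 (adjusted p = 0.0101) and without libraries 1 and 3 together (0.00121) but was lost without JZL184 library 2 (0.0599) or either control sample (0.354 and 0.176), with the log2 fold change between 2.27 and 2.50 in each case.

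Fgf21 was at the limit of detection. It had 0, 0 and 3 reads in control, 1, 0, 4 and 0 in SAP and 10, 11, 7 and 4 in JZL184, which is 0, 0 and 0.15 FPKM, then 0.04, 0, 0.21 and 0, then 0.46, 0.58, 0.37 and 0.22. All 4 JZL184 libraries had reads, and the JZL184 and SAP ranges of FPKM did not overlap, although the lowest JZL184 value (0.22) was next to the highest SAP value (0.21). Both values came from 4 reads, so the groups were tied there in reads and apart only in FPKM. It did not pass the filter on low counts and so has no main test. The summed reads of JZL184 were 7.02 times those of SAP per read on genes (32 against 5 reads; 95% interval 2.72 to 23.1) and 8.17 times those of control (32 against 3 reads; 2.56 to 41.7). These exact binomial intervals cover counting error only. A 2-sided exact permutation test of FPKM (n = 4 against 4) gave p = 0.0286, the smallest it can give, and 0.291 after Benjamini-Hochberg adjustment over 24 such tests. With no filter, edgeR gave a log2 fold change of 2.77 for JZL184 against SAP (adjusted p = 0.177, not called).

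**Figure D2:**
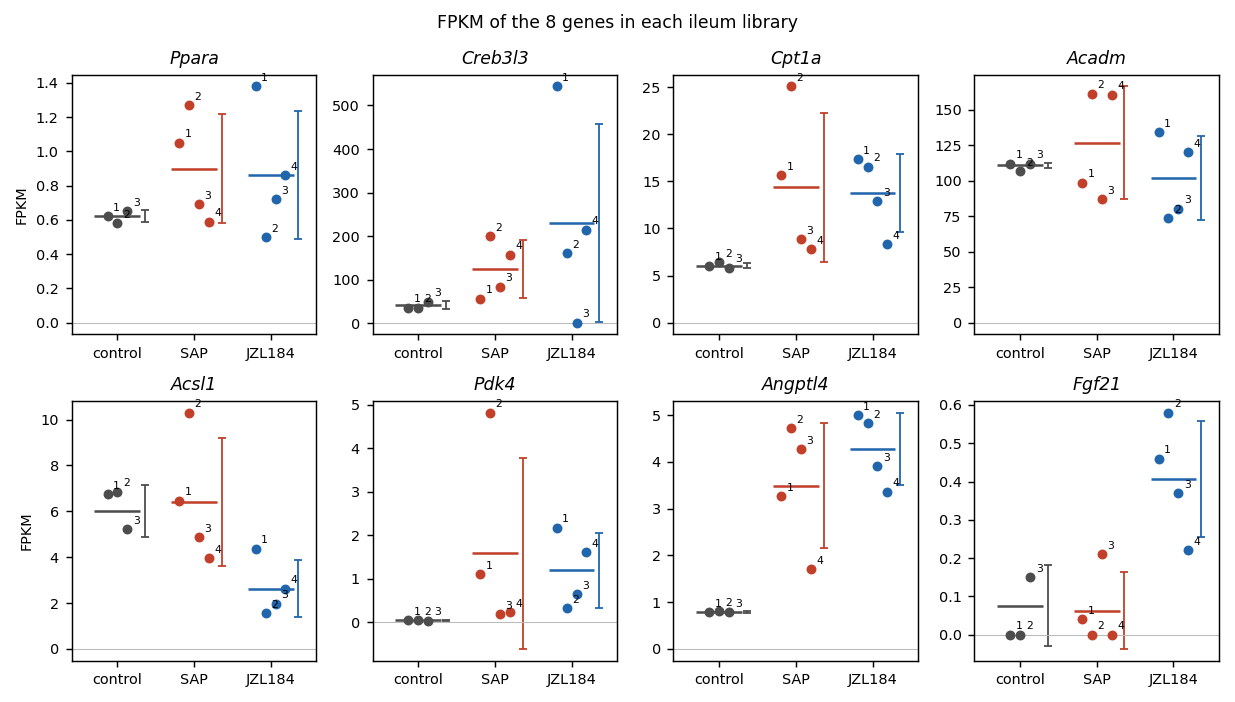
FPKM of each of the 8 genes by group, with 1 numbered point per library, a horizontal line at the group mean and a bar of 1 SD beside it (control libraries 1 and 2 averaged as 1 sample in mean and SD). Cpt1a, Pdk4 and Angptl4 lie above every control library in both SAP and JZL184, and Acsl1 lies below the controls in JZL184.

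As a set, 7 of the 8 members were tested in each comparison. The members were chosen with earlier results of these data known, so their shares and medians beside those of all genes are descriptive only. For SAP against control 0 of 7 were called, and 0 of 16029 genes in all (0.0%). At an unadjusted p under 0.05 the edgeR test counted 3 of 7 members, all higher (Creb3l3, Pdk4 and Angptl4), and 9.09% of all genes (5.69% higher, 3.4% lower). DESeq2 called 2 members, Pdk4 (adjusted p = 0.0117) and Angptl4 (adjusted p = 0.00788), and 1.14% of all genes; without SAP library 2 it called Angptl4 (adjusted p = 0.0403) but not Pdk4 (adjusted p = 0.204). Limma-voom called 0 members and 0.131% of all genes. Every SAP sample exceeded every control sample, in counts scaled by TMM, for 4 members (Creb3l3, Cpt1a, Pdk4 and Angptl4), and the groups were likewise apart for 23.2% of all genes (11.3% higher, 11.9% lower). The median log2 fold change was 1.04 over the 7 members and 0.06 over all genes.

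For JZL184 against SAP 0 of 7 members and 0 of 15308 genes (0.0%) were called by edgeR. An unadjusted p under 0.05 was reached by 1 member, Acsl1, lower, and by 21.3% of all genes (10.3% higher, 11.1% lower). DESeq2 called 0 members and 6.98% of all genes, and limma-voom 1 member and 8.57%. No tested member had groups that did not overlap, against 11.8% of all genes (6.23% higher, 5.59% lower). The median was 0.10 over the members and -0.05 over all genes.

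For JZL184 against control 1 of 7 members was called, higher, as were 2.16% of all genes (1.02% higher). An unadjusted p under 0.05 was reached by 4 members, Cpt1a, Pdk4 and Angptl4 higher and Acsl1 lower, and by 26.3% of all genes (13.8% higher, 12.5% lower). The groups did not overlap for the same 4 members and for 38.3% of all genes (18.9% higher, 19.3% lower). DESeq2 and limma-voom each called 3 members, Acsl1, Pdk4 and Angptl4, with 11.7% and 18.2% of all genes called. The median was 1.15 over the members and 0.08 over all genes. This comparison and SAP against control share the control samples.

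**Figure D3:**
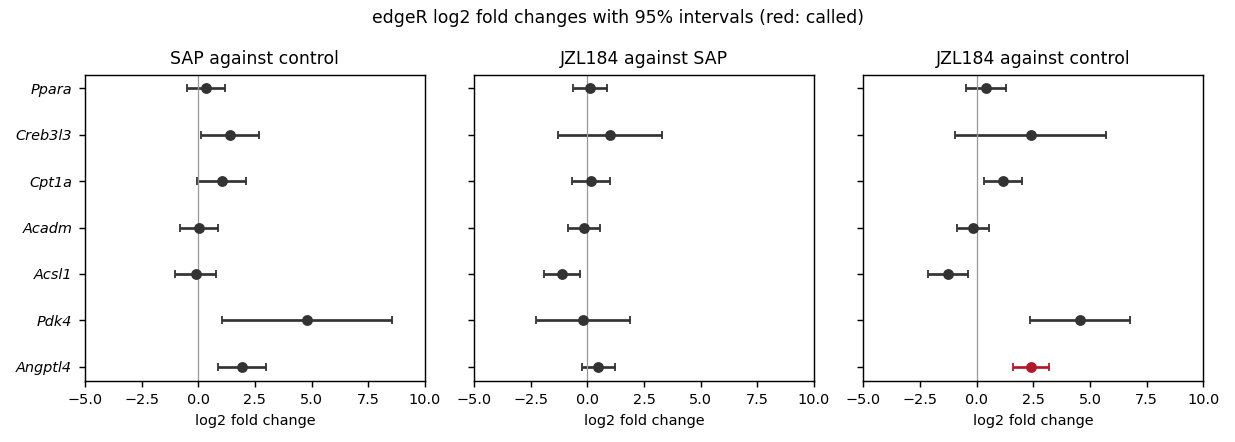
Log2 fold change with its 95% interval for the 7 tested genes in the 3 comparisons from edgeR, with the called value in red. The intervals of Angptl4 and Pdk4 lie above 0 in both comparisons with control, and those of JZL184 against SAP span 0 for all but Acsl1.

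The members called for JZL184 against control depended on which samples were kept. Without JZL184 library 1 the called members were Acsl1, Pdk4 and Angptl4 (12.0% of all genes called), and without library 3 they were Creb3l3, Pdk4 and Angptl4 (5.46%). Without library 4 only Angptl4 was called (0.493% of all genes), and without library 2 none was (0.158%). None was called without the summed control libraries 1 and 2 (0.0%) or without control library 3 (0.00601%), where 1 control sample was left and was assumed to vary like the JZL184 samples. Without libraries 1 and 3 together 4 members were called, Creb3l3, Pdk4 and Angptl4 higher and Acsl1 lower, beside 19.4% of all genes. With DESeq2 and without library 3 Creb3l3, Cpt1a, Pdk4 and Angptl4 were called, beside 11.9% of all genes.

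**Figure D4:**
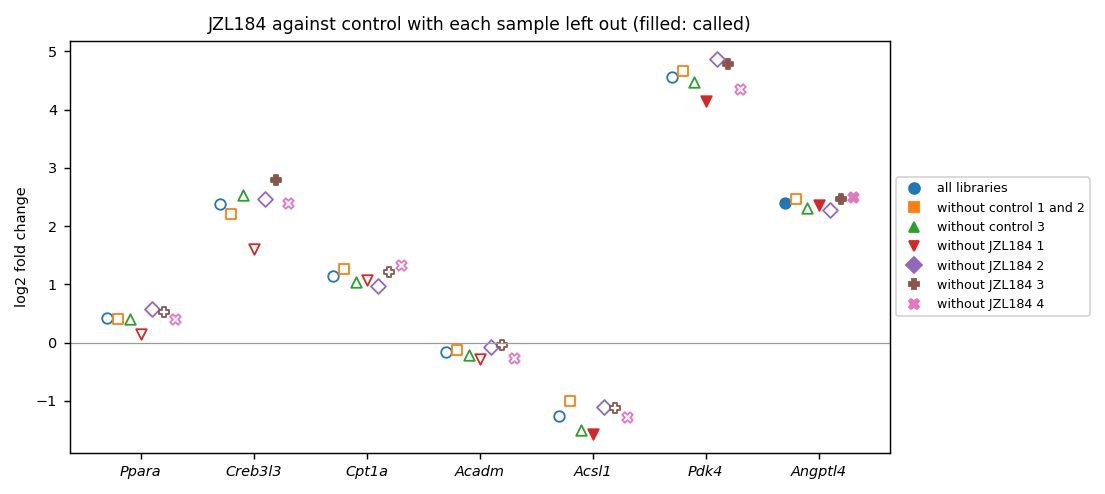
Log2 fold change of JZL184 against control for the 7 tested genes with all libraries and with each sample left out, filled where called. Angptl4 stayed between 2.27 and 2.50 and Pdk4 between 4.15 and 4.86, while Creb3l3 ranged from 1.61 to 2.79.

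The highest value of a group often came from the same library. SAP library 2 was the highest SAP library for 7 of 8 members and for 30.5% of 11092 genes with a mean of at least 1 FPKM. JZL184 library 1 was the highest JZL184 library for 7 of 8 members and for 37.6% of those genes. Without SAP library 2 the SAP mean of Cpt1a was 10.8 ± 4.24 FPKM (SD, n = 3) in place of 14.4 ± 7.95 (SD, n = 4), and that of Pdk4 was 0.51 ± 0.52 in place of 1.59 ± 2.20.

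Other genes of the pathway were read from 10 lists of 110 genes, of which 107 had counts. For SAP against control 102 were tested and 0 were called (11 higher and 4 lower at an unadjusted p under 0.05, where all genes gave 9.09%). DESeq2 called 1 of them, higher, and 1.14% of all genes. For JZL184 against SAP 99 were tested and 0 called (10 higher and 5 lower unadjusted, where all genes gave 21.3%). DESeq2 called 2 of them higher and 1 lower, and 6.98% of all genes. For JZL184 against control 101 were tested and 1 was called, higher, where 2.16% of all genes were called (10 higher and 9 lower unadjusted, where all genes gave 26.3%). DESeq2 called 5 of them higher and 3 lower, and 11.7% of all genes. The medians over the lists were 0.09, 0.00 and 0.10 on the log2 scale, close to those of all genes.

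The called gene was Acsl4, an acyl-CoA synthetase that favours arachidonic acid. It was at 0.34, 0.28 and 0.64 FPKM in control, 2.57, 1.55, 0.93 and 0.66 in SAP and 2.14, 2.25, 2.19 and 2.13 in JZL184. Its log2 fold change for JZL184 against control was 2.19 (SE 0.366, edgeR adjusted p = 0.0289). The call held without JZL184 library 3 (adjusted p = 0.0159) but was lost without JZL184 library 2 (0.0794) or 4 (0.0751) or without either control sample (0.407 and 0.149). Acsl4 was thus higher in the comparison in which its relative Acsl1 had a negative, uncalled estimate.

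Oxct1, which uses ketone bodies outside the liver, was at 25.6, 24.9 and 36.1 FPKM in control, 94.8, 67.2, 28.5 and 21.1 in SAP and 18.2, 8.23, 6.53 and 12.5 in JZL184. All its JZL184 values lay below all SAP values, with a log2 fold change of -2.02 that was not called (adjusted p = 0.0909, edgeR; -1.81 and 0.175 without JZL184 library 3).

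Genes around the other members were not called with all libraries. Plin2, a lipid droplet coat protein and PPAR target, was at 11.9 ± 0.792 FPKM in control (n = 2), 36.4 ± 14.3 in SAP (n = 4) and 33.9 ± 12.8 in JZL184 (n = 4; mean ± SD), and its log2 fold change for SAP against control was 1.42 (edgeR adjusted p = 0.459). Ucp2, a mitochondrial carrier, was at 561.47 ± 97.2 FPKM in control (SD, n = 2) and 218.96 ± 57.3 in JZL184 (SD, n = 4), a log2 fold change of -1.39 (edgeR adjusted p = 0.07). Its SAP level was 240.46 ± 91.7 FPKM (SD, n = 4), with a log2 fold change of -1.37 against control (edgeR adjusted p = 0.459), close to that of JZL184. For JZL184 against control, the log2 fold change of Abcd3, a peroxisomal fatty acid transporter, was 1.02 (edgeR adjusted p = 0.0738). It was 1.72 for Pdp1, the phosphatase that opposes PDK4 (edgeR adjusted p = 0.088). It was -1.71 for Angptl8, which acts with the ANGPTL family on lipoprotein lipase (edgeR adjusted p = 0.0828). Without JZL184 library 3 Angptl8 was called lower (log2 fold change -1.44, edgeR adjusted p = 0.0458), while Ucp2 (adjusted p = 0.052), Abcd3 (0.0863) and Pdp1 (0.085) were not. Fgf19, the ileal bile acid hormone related to FGF21, ranged from 0.44 to 22.1 FPKM in JZL184 and from 0.09 to 2.69 in SAP and was not called.

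**Figure D5:**
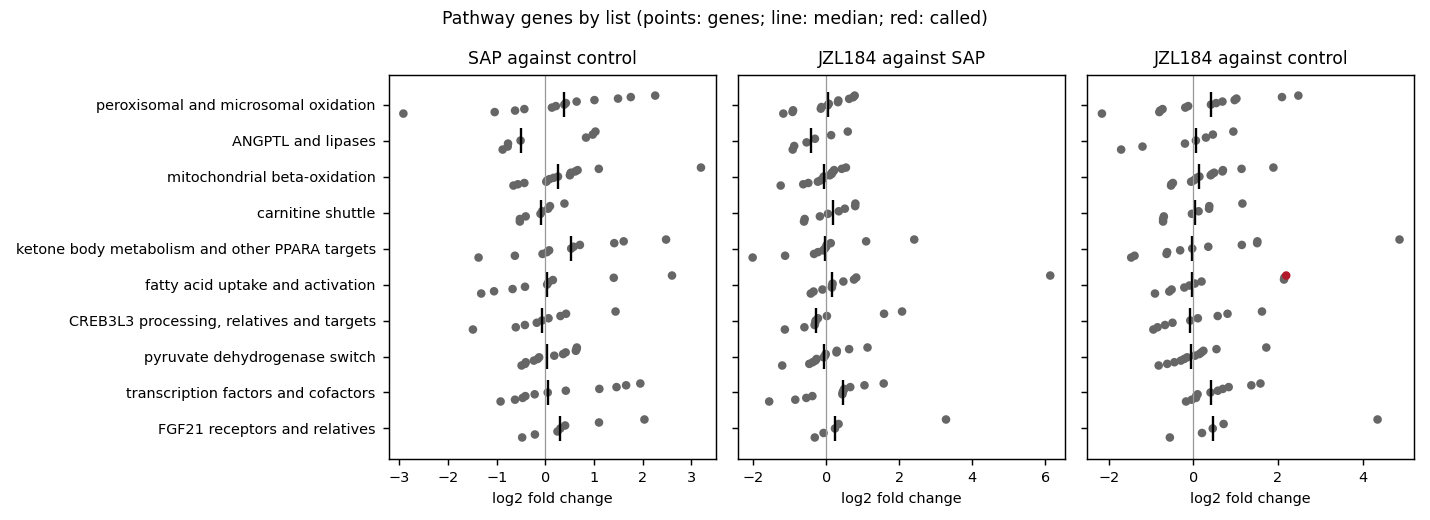
Log2 fold change of each tested gene of the 10 pathway lists in the 3 comparisons, with a line at the median of each list and called genes in red. The list medians lie between -0.51 and 0.53, and Acsl4 in JZL184 against control is the called gene.

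Markers of other cell types were summed as FPKM beside these results. The 4 neutrophil markers summed to 0.62 to 1.5 in control, 7.86 to 79.4 in SAP and 12.2 to 245.12 in JZL184, above control as were Cpt1a, Pdk4 and Angptl4. Within groups the order was mixed. SAP library 2, the highest SAP library for these genes, had a sum of 8.52. JZL184 library 2, with a sum of 245.12, was the lowest JZL184 library for Pdk4. Its Cpt1a (16.6 FPKM) and Angptl4 (4.83) were next to the highest JZL184 values (17.3 and 5.0). SAP library 4 was the lowest SAP library in the sum, Cpt1a and Angptl4. The 8 adipocyte markers summed to 253.25 to 438.54 in control, 258.3 to 757.05 in SAP and 488.45 to 817.78 in JZL184. Adipose tissue expresses Angptl4, Pdk4 and Acsl1, and the part of either cell type in the members' values was not tested. The 7 measured enterocyte markers summed to 1102 to 1701 in control, 793.03 to 1679 in SAP and 160.63 to 1528 in JZL184, where library 3 was the lowest and the others began at 901.56. The 6 smooth muscle markers summed to 1872 to 2064 in control, 801.04 to 2023 in SAP and 366.67 to 2115 in JZL184 (366.67 to 939.73 without library 3, below control), and the 4 skeletal muscle markers to between 5.8 and 19.5 in all libraries. The 4 macrophage markers summed to 7.96 to 9.89, 12.4 to 36.5 and 6.59 to 15.8 and the 4 lymphocyte markers to 94.9 to 100.44, 18.2 to 84.9 and 58.9 to 87.8 in control, SAP and JZL184. The macrophage sum was highest in SAP library 2 and lowest in JZL184 library 1. The 5 measured exocrine pancreas markers were each under 0.1 FPKM in every sample, and the 4 measured hepatocyte markers summed to at most 5.05.

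The genes whose pattern over the 10 samples was most like each member were found by the root mean square difference of log2(FPKM + 1) scaled to mean 0 and SD 1, among 11092 genes. For Pdk4 the one given here is Slc25a36, a mitochondrial nucleotide carrier gene (difference 0.339 SD). For Angptl4 they were Fcgr2b, an inhibitory Fc receptor of immune cells (0.305), and Lmcd1 (0.314), and for Creb3l3 B4galnt4 (0.192) and the glutathione transferase gene Gsta5 (0.24). Sgpl1 and Slc18b1 were nearest to Ppara (0.239 and 0.281), Thbs1 and LOC102553760 to Cpt1a (0.385 and 0.375), Tdp1 and Itgb4 to Acsl1 (0.212 and 0.232), Fmo4 and LOC120094666 to Acadm (0.473 and 0.457) and LOC120099984 and Rps12l3 to Fgf21 (0.312 and 0.321). Among the members themselves the closest pairs were Ppara with Pdk4 (0.467) and Cpt1a with Angptl4 (0.58). These cannot be ranked against the nearest genes, which were picked from the far larger pool of 11092 genes. With a pseudocount of 0.1 in place of 1, 9 of the 16 nearest genes stayed, none of them for Pdk4.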

How the data were processed

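Stranded mRNA libraries of rat ileum (11) were sequenced. Per the labels, the authors aligned reads with HISAT2 to mRatBN7.2 and used DESeq2. Versions and the counting tool: not given in the sources used here. Deposited tables hold read counts per gene, not normalized, and FPKM values that the authors computed per library. The members and gene lists were chosen with earlier results of these data known.

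Counts were tested with edgeR 4.0.16 in R 4.3.3 (quasi-likelihood test, TMM, filterByExpr with a minimum count of 10, groups in pairs), and p-values were adjusted by Benjamini-Hochberg over all genes tested. Called genes had adjusted p below 0.05 with at least a 2-fold difference in either direction. Control libraries 1 and 2 were summed. The fit was tested on simulated counts with 200 genes changed 4-fold. The spread between simulated samples was set to a fixed value and not taken from these libraries. That test therefore checks the code and not the power on these data. DESeq2 1.42.0, limma-voom (limma 3.58.1), separate controls, other filters and scalings, and left-out libraries were alternatives. FPKM were compared by 2-sided exact permutation tests (scipy 1.17.1), which cannot give p under 0.133 for 4 against 2 samples. Named genes were the members, Mgll, the 2 genes of each pathway list with the smallest p in a comparison (values are given for some of them) and the 2 genes nearest to each member, of which some are not reported here; Apoa4, Fabp6, Lct, Apob, Car1 and Hoxd10 were chosen after their values were seen. Motifs were searched in RefSeq promoters of GRCr8.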

Additional observations from a re-analysis of the deposited data

How the results depend on the processing

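Among 403 estimates of the members under alternative settings, 334 kept their direction and their side of the calling rule, 34 came to be called, 3 were no longer called and 32 changed sign; none of those that changed sign was called in either setting, and the cause was not tested. Some alternatives left out libraries chosen after seeing the data: JZL184 library 3, libraries 1 and 3 together, and SAP library 2 (with DESeq2, or together with JZL184 library 3 in edgeR). Depth limits Fgf21, with at most 11 reads a library, and Pdk4 in control, with 2.

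For SAP against control, where edgeR called no genes, DESeq2 called 203 genes, of them 2 members and 1 pathway gene; without SAP library 2 it called 147, 1 and 1, and with 3 separate control samples 1469, 3 and 13. With separate controls edgeR called 33 genes and 1 pathway gene, limma-voom called 21 genes, no filter on low counts gave 14, and all 3 groups in 1 fit gave 4. Leaving out 1 sample gave 0 to 3 genes.

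For JZL184 against SAP, where edgeR called no genes, DESeq2 called 1283 genes and 3 pathway genes, 806 and 3 without JZL184 library 3, and 612 and 3 without SAP library 2. Limma-voom called 1312 genes, 1 member and 4 pathway genes, and all 3 groups in 1 fit gave 207 genes and 1 pathway gene. Gene length offsets gave 33 genes, no filter 27, and leaving out JZL184 libraries 1 and 3 together gave 7. Leaving out 1 sample gave 0 to 655 genes, the highest without JZL184 library 1, and 0 to 4 pathway genes.

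For JZL184 against control, where edgeR called 343 genes, 1 member and 1 pathway gene, DESeq2 called 1956, 3 and 8, and without JZL184 library 3 it called 2008, 4 and 12. With separate controls edgeR called 2800, 4 and 12 and DESeq2 3498, 4 and 17; limma-voom called 2898, 3 and 11, and no filter gave 929, 2 and 5. All 3 groups in 1 fit, and a minimum of 10 reads in every library, each gave 2 pathway genes. Without JZL184 libraries 1 and 3 together there were 2967, 4 and 17. Leaving out 1 sample gave 0 to 1867 genes, 0 to 3 members and 0 to 12 pathway genes, and Acsl4 was not called without JZL184 library 2 or 4 or without either control sample.

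The replicate block, which treats equal numbers in the titles as pairs, gave 1488 genes, 4 members and 9 pathway genes for JZL184 against control, 1176, 4 and 7 with gene length offsets, and 1 gene (7 with offsets) for SAP against control. The numbers did not pair the samples: the deviations of same-numbered samples correlated between -0.48 and 0.16, and the best partner carried the same number for 1 of 10. Under the block Acadm was at -0.21 for SAP against control and Pdk4 at 0.85 for JZL184 against SAP (log2). With block and length offsets Ppara was at -0.305 for SAP and -0.027 for JZL184 against control (log2), and Creb3l3 at -0.023 and Pdk4 at 0.74 for JZL184 against SAP.

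Other changes of sign were these log2 fold changes. For SAP against control Ppara was -0.24 with length offsets, and Acadm was -0.10 with limma-voom, -0.009 with 3 groups in 1 fit and -0.054 with DESeq2 without SAP library 2. For JZL184 against SAP limma-voom gave -0.052 for Ppara, -0.03 for Cpt1a, 0.28 for Pdk4 and -0.18 for Mgll. In that comparison Pdk4 was 1.36 with DESeq2 without SAP library 2, 0.016 with DESeq2 without JZL184 library 3, and 1.55 without both, when Acadm was 0.021 and Mgll -0.38. Mgll was -0.28 with DESeq2 without JZL184 library 3, and without libraries 1 and 3 Mgll was -0.63 and Ppara -0.15 (against control, Mgll was then -1.27 and called). Leaving out 1 sample moved Acadm from -0.17 to 0.17, Acsl1 from -0.39 to 0.16 and Fgfr3 from -0.01 to 0.99 for SAP against control. For JZL184 against SAP it moved Ppara from -0.15 to 0.27, Cpt1a from -0.025 to 0.52, Acadm from -0.31 to 0.042, Pdk4 from -0.57 to 1.38 and Mgll from -0.28 to 0.72, and for JZL184 against control Mgll from -0.92 to 0.093.

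In the exact permutation tests of FPKM, 1 of 24 had an unadjusted p under 0.05 (Fgf21, JZL184 against SAP), and 0 without SAP library 2 or JZL184 library 3. That 0 says nothing about stability, since 4 against 3 samples cannot give a p under 0.0571, and Fgf21 reached this value in both cases. Its FPKM did not overlap between the groups, but JZL184 library 4 and SAP library 3 had 4 reads each. For JZL184 against SAP, the difference of mean log2(FPKM + 1) was -0.39 for Creb3l3, 0.035 for Cpt1a and 0.006 for Pdk4, and with a pseudocount of 0.1 it was -0.52, 0.043 and 0.29, opposite in sign to the differences of mean FPKM. Without SAP library 2 the differences of mean FPKM were 0.088 for Ppara, 3.00 for Cpt1a and 0.69 for Pdk4 (JZL184 minus SAP), and -0.91 for Acsl1 and 0.008 for Fgf21 (SAP minus control). Without JZL184 library 3 Ppara was at 0.013 (JZL184 minus SAP), so that Ppara ranged from 0.013 to 0.088, Cpt1a from -0.29 to 3.00 and Pdk4 from -0.21 to 0.69. With 3 separate control samples Fgf21 was at 0.013 (SAP minus control).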
